A study of Bos taurus with 170 samples.

Results

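The genes described here encode proteins of the mitochondrial ribosome and of the machinery that brings proteins into mitochondria. They were all genes of the UMI count table whose symbols start with MRPL, MRPS, TIMM or TOMM, which gave 93 of 10772 genes. Of these, 46 were MRPL genes (large subunit of the mitochondrial ribosome), 26 were MRPS genes (named for the small subunit), 13 were TIMM genes (translocases of the inner membrane) and 8 were TOMM genes (translocase of the outer membrane). The prefixes define symbols and not complexes. MRPS18A and MRPS30 are now placed in the large subunit, TIMMDC1 is known as an assembly factor of respiratory complex I, MRPS36 as a subunit of the 2-oxoglutarate dehydrogenase complex and TOMM34 as a cytosolic co-chaperone, and all were kept because the prefix rule holds for them.

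Mitochondria translate the few proteins encoded by their own DNA on a ribosome of their own, whose RNA comes from mitochondrial DNA and whose proteins are all encoded in the nucleus. These proteins, like nearly all mitochondrial proteins, are made in the cytosol and enter through the TOM complex of the outer membrane. The TIM23 complex then takes proteins with a cleavable presequence into the inner membrane or the matrix, while the TIM22 complex inserts carrier proteins with the help of small TIM chaperones in the intermembrane space. In mammals the egg supplies the mitochondria of the embryo, and cleavage divides them among the blastomeres.

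Single blastomeres of in vitro produced bovine embryos were profiled by SCRB-Seq, in which poly(T) primers tag each captured mRNA molecule with a barcode of the cell and a random molecular identifier (UMI) that allows PCR copies to be counted once. The Day 2 group held 6 embryos at the 8-cell stage and the Day 3 group 8 embryos at the 16-cell stage. All embryos came from oocytes of slaughterhouse ovaries, were fertilized and cultured in vitro, were selected by the timing of their first cleavages and received no treatment. They are separate embryos, but the labels do not say which of them share a cow, a bull or a fertilization run.

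Cells with at least 2000 UMI were summed per embryo, which kept 43 of 47 Day 2 cells and 118 of 123 Day 3 cells. An embryo then held 438899 to 920192 UMI on genes on Day 2 and 294912 to 600185 on Day 3. The unit of level is CPM, or UMI per 1000000 UMI on all genes of the embryo. One captured molecule gives 1 UMI whatever its length, so CPM was not divided by transcript length, and a longer poly(A) tail and more RNA cannot be told apart. CPM is also a share, so a lower value and a larger remainder of the transcriptome cannot be told apart. The members held 45127 UMI on Day 2 and 32637 on Day 3, 87 of the 93 had a UMI in every embryo, and 77 passed the filter on low counts (57 ribosome and 20 import genes).

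Several libraries stood apart. Over the 17 members higher on Day 3, described below, Day3-E1 had a sum within the Day 2 range and Day3-E4 and Day3-E8 had the highest sums. The cell barcodes in the labels fell into a first set, shared by every Day 2 embryo with Day3-E1 and Day3-E2, and a second set for embryos 4 to 8 of Day 3. For Day3-E3 the set was not clear. Day and barcode set therefore overlap. The 170 cells used 93 distinct barcodes, 77 of which were carried by 2 cells (47 by a Day 2 and a Day 3 cell, 30 by cells of Day 3 only). The sample titles also end in p1, p2 or p3, which the labels do not explain. The p1 group held Day 3 embryos only, and p2 and p3 held both days. By the collection times the study lists, Day 3 embryos of p1 were collected first, then those of p3, then those of p2. On Day 2 the embryos of p2 were likewise collected after those of p3. Within a day, title ending and time of collection therefore cannot be told apart.

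Summed over all members, the genes took 11253 ± 283 CPM on Day 2 (SD, n = 6) and 10311 ± 967 CPM on Day 3 (SD, n = 8), or 1.13% and 1.03% of all UMI. The sum ranged from 10907 to 11768 CPM on Day 2 with a median of 11209, and from 8775 to 11582 on Day 3 with a median of 10174. Of the 8 Day 3 embryos, 5 lay below every Day 2 embryo, and the days overlapped through Day3-E1, Day3-E4 and Day3-E5.

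The ribosome genes summed to 7227 ± 250 CPM on Day 2 and 6586 ± 662 on Day 3, a difference of -8.86%. For the import genes the sums were 4027 ± 161 and 3724 ± 365 CPM, a difference of -7.51%. The direction of these sums was not settled across scales, which measure different things. CPM is a share of the embryo's UMI and TMM sets the level against most genes. The ERCC scale sets it against spike-in RNA that was added to each well. On CPM the log2 ratio of Day 3 to Day 2 was -0.13 for ribosome genes and -0.11 for import genes, with TMM scaling it was 0.15 and 0.16, and per ERCC spike-in UMI it was -0.64 and -0.61. ERCC molecules took 1.38% to 1.52% of the UMI of Day 2 embryos, at most 1.46% in Day3-E1, Day3-E2 and Day3-E3, and 2.43% to 2.98% in the second barcode set, so that the ERCC scale moved with the barcode set, whose part in the result was not tested.

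Ribosome and import genes kept nearly the same proportion. The quotient of their sums was 1.80 ± 0.10 on Day 2 and 1.77 ± 0.12 on Day 3, and only Day3-E1 at 1.59 and Day3-E6 at 1.66 lay below the Day 2 embryos, which ranged from 1.701 to 1.99. Within p2 the quotient was 1.78 on Day 2 and 1.88 on Day 3, and within p3 it was 1.81 and 1.77.

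The sign and size of the changes by prefix moved with the scaling, which multiplies all genes of an embryo by one factor and so leaves the prefixes in nearly the same order. On CPM the log2 ratio of Day 3 to Day 2 was -0.31 for MRPS genes, -0.12 for TOMM, -0.11 for TIMM and -0.06 for MRPL genes, while with TMM it was -0.05, 0.15, 0.17 and 0.23, and per ERCC UMI -0.79, -0.61, -0.61 and -0.58. The summed level of the MRPS genes was 2317 ± 142 CPM on Day 2, with embryos between 2145 and 2462, and 1864 ± 224 on Day 3, with embryos between 1632 (Day3-E4) and 2271 (Day3-E1), a difference of -19.5%. Every Day 3 embryo but Day3-E1 lay below all Day 2 embryos. The MRPL genes differed by -3.82%, with Day3-E4 and Day3-E5 above and 5 embryos below the Day 2 range, the TIMM genes by -7.19% and the TOMM genes by -7.75%.

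**Figure D1:**
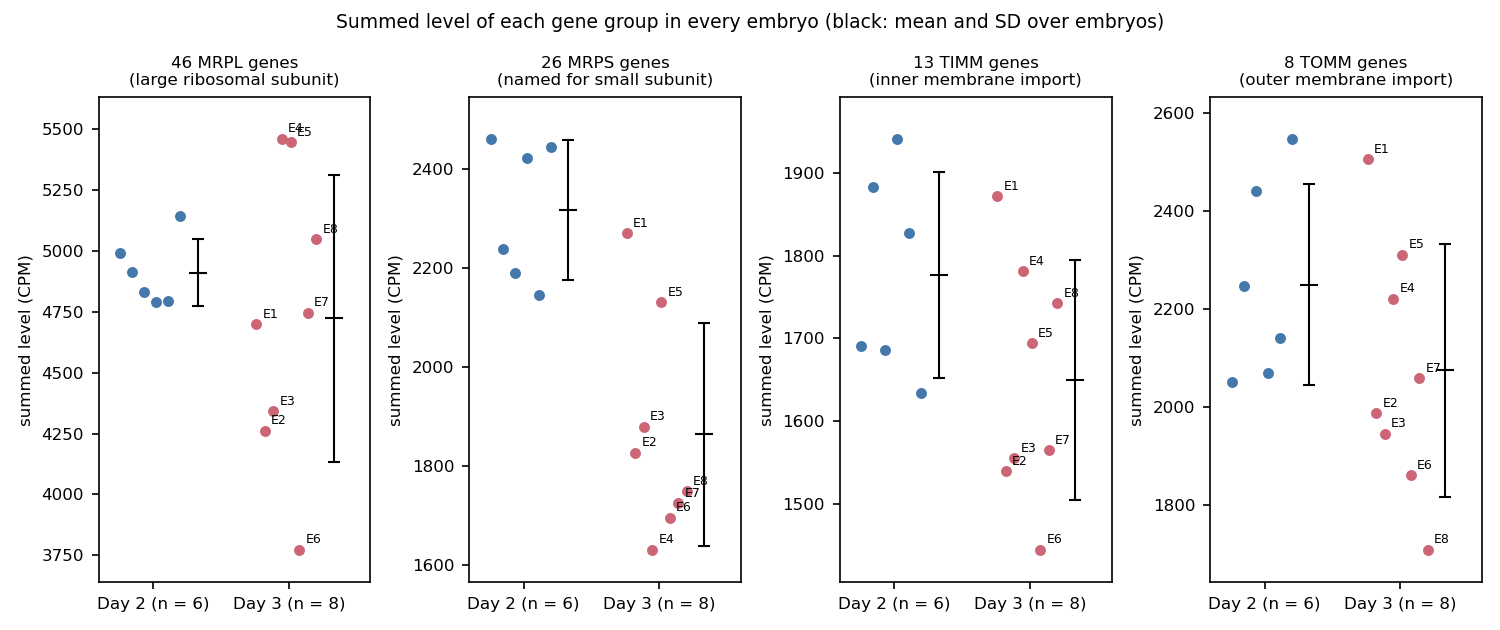
Summed level in CPM of the MRPL, MRPS, TIMM and TOMM genes in each embryo, with the mean and SD over 6 Day 2 and 8 Day 3 embryos in black and the Day 3 embryos marked by number. The axes do not start at 0. For MRPS genes Day3-E1 is the one Day 3 embryo within the Day 2 range, while for the other prefixes 4 or 5 Day 3 embryos lie below it.

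By edgeR's quasi-likelihood test on summed counts with Benjamini-Hochberg adjustment over 5274 genes, 22 of the 77 members tested passed an adjusted p under 0.05, or 28.6%, beside 32.46% of all genes tested. On Day 3, 17 members were higher (22.1%, beside 21.18% of all genes) and 5 were lower (6.49%, beside 11.28%). The median log2 fold change was 0.05 over the members and -0.04 over all genes tested. These fold changes rest on TMM scaling. By library size alone the median of all genes was -0.27 and that of the members -0.19, and the called members split into 12 higher and 10 lower, or 54.5% higher in place of 77.3%, while all called genes moved from 65.2% to 47.6% higher. None of the 22 members called with TMM changed sign without it. Of the 17 members called higher, 10 had fewer than 6 Day 2 embryos at the level of the filter (22.3 CPM) and so needed Day 3 embryos to pass it, and the counts are a description.

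The share called over all genes tested, 32.46%, lay between those of the import and the ribosome genes, whose difference was not tested. Of 20 import genes 7 were higher and 2 lower (45.0% called), with a median log2 fold change of 0.40, or 0.12 without TMM. Of 57 ribosome genes 10 were higher and 3 lower (22.8% called), with a median of -0.05, or -0.31 without TMM. By prefix the calls were 9 higher and 3 lower of 39 MRPL genes, 1 higher and 0 lower of 18 MRPS genes, 4 higher and 1 lower of 12 TIMM genes, and 3 higher and 1 lower of 8 TOMM genes. The shares called were 30.8% of MRPL, 5.56% of MRPS, 41.7% of TIMM and 50% of TOMM genes. Beside them stood 21.18% of all genes called higher and 11.28% called lower. Among the MRPS genes edgeR's unadjusted p was under 0.05 for 1 higher and 2 lower genes, and DESeq2 called 2 higher and 0 lower.

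**Figure D2:**
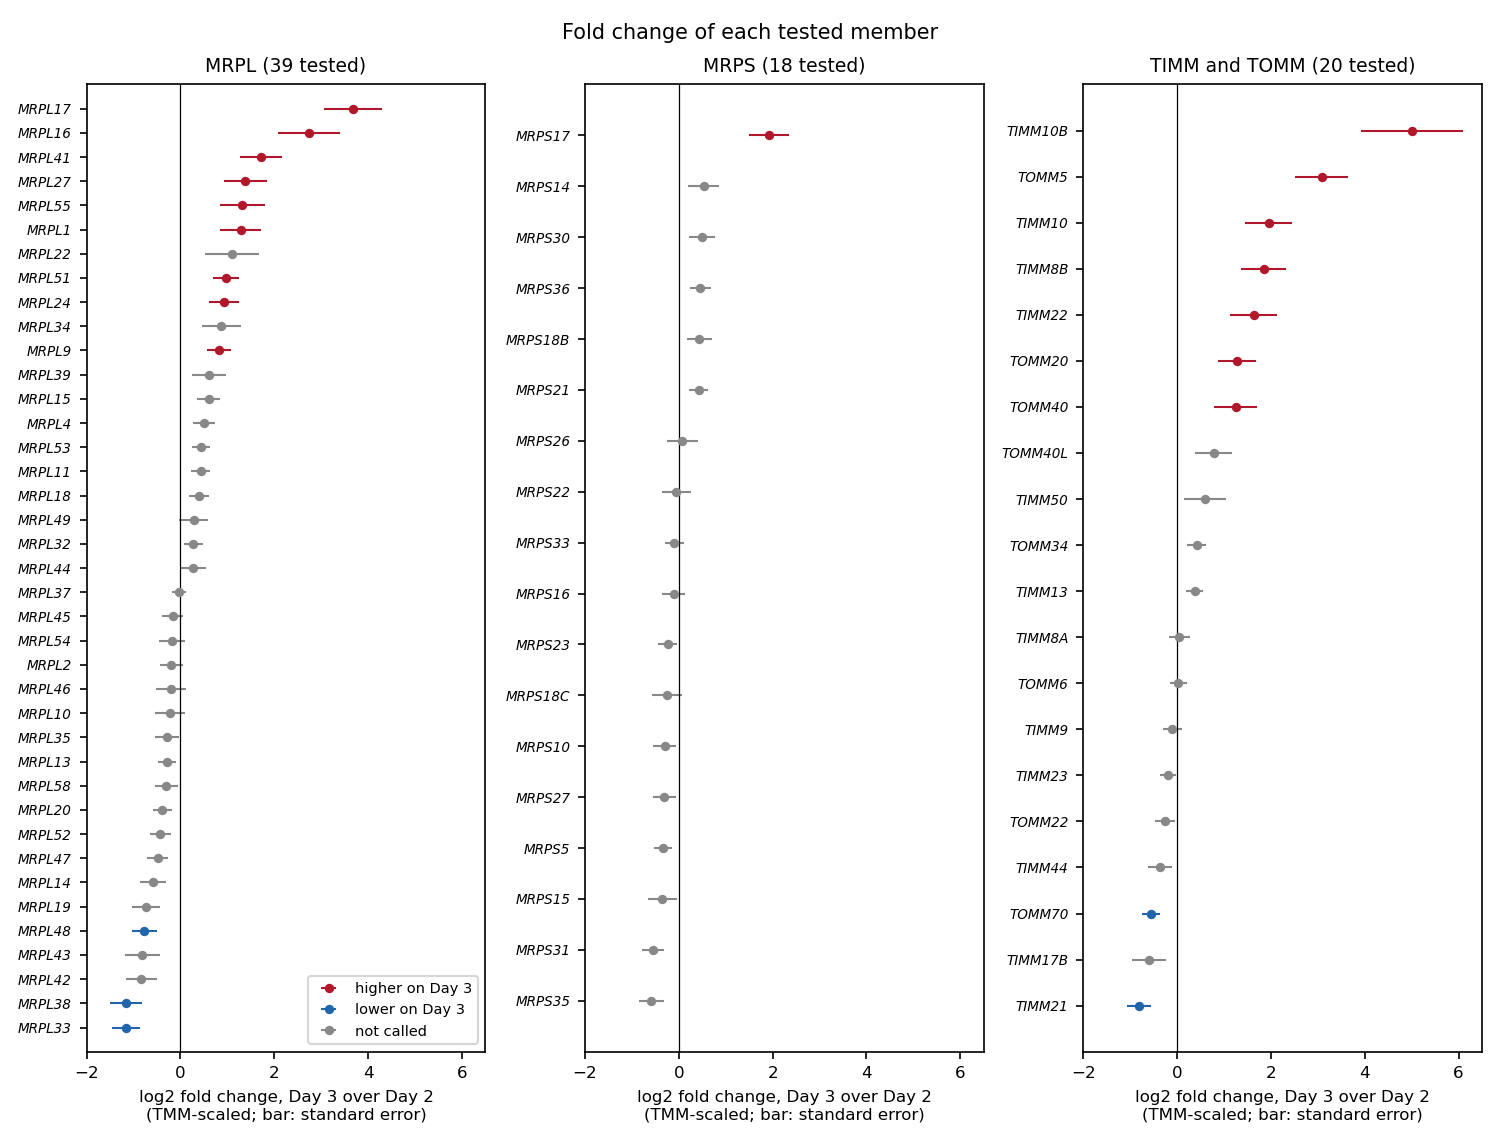
Log2 fold change of Day 3 over Day 2 with its standard error for the 77 tested members, by prefix, in order of size. Red points are the 17 members called higher and blue points the 5 called lower. TIMM10B, MRPL17 and TOMM5 lie farthest to the right, and the MRPS panel holds 1 called gene, MRPS17.

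The TOM complex is the entry gate, with receptors that bind precursors in the cytosol, a channel and small subunits that stabilize it. TOMM5, one of the small subunits, ranged from 33.5 to 52.4 CPM in Day 2 embryos with a median of 48.4, and from 58.3 (Day3-E1) to 837 (Day3-E4) in Day 3 embryos with a median of 252.0. It was the one tested member with every Day 3 embryo above every Day 2 embryo, as 3.98% of all genes tested were. By log2 fold change it rose by 3.08 (standard error, SE, 0.57, edgeR adjusted p = 0.000892). TOMM6, the other small subunit measured, was among the most abundant members at 841 ± 171 CPM on Day 2 and 738 ± 275 on Day 3, with a log2 fold change of 0.03 (edgeR adjusted p = 0.919).

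Of the 3 receptors TOMM70 was called lower and TOMM20 higher. TOMM70, which takes in carrier precursors handed over by cytosolic chaperones, fell from 925 ± 114 to 544 ± 205 CPM, with a log2 fold change of -0.55 (SE 0.19, adjusted p = 0.0344). Day 2 embryos lay between 838 and 1119 CPM with a median of 863, and Day 3 embryos between 211 and 861 with a median of 524. Every Day 3 embryo but Day3-E1 lay below the Day 2 range. The call was lost without Day2-E2, Day2-E3, Day3-E2, Day3-E4 or Day3-E5, with an adjusted p of up to 0.0668.

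TOMM20, the receptor for presequences, rose from 62.8 ± 15.9 to 119.9 ± 63.7 CPM, with a log2 fold change of 1.28 (SE 0.40, adjusted p = 0.0225). Day 2 embryos lay between 47.0 and 83.2 CPM with a median of 59.0, and Day 3 embryos between 31.4 (Day3-E3) and 239 (Day3-E8) with a median of 116. Of the Day 3 embryos 5 lay above the Day 2 range and Day3-E3 below it. The call of TOMM20 was lost without Day2-E1, Day2-E3 or Day2-E4 (adjusted p of up to 0.0540) and with cells thinned to 10000 UMI (log2 fold change 0.74, adjusted p = 0.257). The quotient of TOMM20 to TOMM70 was 0.0691 ± 0.0214 on Day 2 and 0.315 ± 0.349 on Day 3, where it reached 1.13 in Day3-E8. TOMM22, the central receptor, was at 171 ± 32 and 122 ± 48 CPM (log2 fold change -0.25, adjusted p = 0.386). Since TOMM70 held most of their molecules, the sum of the 3 receptors was 1158 ± 135 CPM on Day 2 and 786 ± 197 on Day 3.

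TOMM40, the channel itself, was at 28.5 ± 7.9 CPM on Day 2 and 53.3 ± 37.1 on Day 3, with embryos between 16.74 and 39.6 and between 23.3 and 131 CPM. Its log2 fold change of 1.25 (SE 0.46) had an adjusted p of 0.0459 by edgeR's test and 0.0815 without TMM, so that the call depended on the scaling. It was also lost in 10 of the 14 fits that left out 1 embryo, with an adjusted p of up to 0.127, without Day3-E8. TOMM40 reached the level of the filter in 5 of 6 Day 2 embryos and so needed Day 3 embryos to pass. Without the filter its edgeR adjusted p was 0.0543. Its paralog TOMM40L and TOMM34 did not pass the test, with log2 fold changes of 0.79 and 0.42.

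The small TIM chaperones form rings that carry hydrophobic precursors across the intermembrane space, TIMM9 with TIMM10 and TIMM8A or TIMM8B with TIMM13, while TIMM10B docks them onto the TIM22 complex. Of the 6 genes 3 were higher on Day 3 (TIMM8B, TIMM10 and TIMM10B), beside 21.18% of all genes, too few to compare. The others did not pass the test. TIMM10B had 10 UMI in all 6 Day 2 embryos together, or 2.53 ± 2.39 CPM, with 0 UMI in Day2-E5 and Day2-E6. In Day 3 embryos it had 188 UMI, or 64.4 ± 81.3 CPM, from 0 in Day3-E1 through a median of 30.05 to 234 in Day3-E8. All Day 3 embryos but Day3-E1 lay above the Day 2 range. The log2 fold change was 5.00 (SE 1.08, edgeR adjusted p = 0.00258), or 4.85 (adjusted p = 0.000565) without the filter. No Day 2 embryo reached the level of the filter, so TIMM10B was tested only because it was high on Day 3, and it was tested in only 8 of the 14 fits that left out 1 embryo. Its size is given as a description.

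TIMM10 ranged from 12.8 to 44.1 CPM on Day 2 with a median of 38.2, and from 26.7 to 221 on Day 3 with a median of 98.0 (log2 fold change 1.95, standard error 0.50, adjusted p = 0.00786). It reached the level of the filter in 5 of 6 Day 2 embryos and so needed Day 3 embryos to pass. Without the filter its edgeR adjusted p was 0.00442. TIMM8B ranged from 23.0 to 45.6 CPM with a median of 28.0, and from 28.3 to 236 with a median of 71.4 (log2 fold change 1.85, standard error 0.47, adjusted p = 0.00745). In both, 6 of the 8 Day 3 embryos lay above the Day 2 range, Day3-E4 was highest, and Day3-E1 and Day3-E5 overlapped Day 2. With the title ending as a term of the fit, TIMM8B had a log2 fold change of 1.14 and was no longer called (adjusted p = 0.118). The ring partners did not pass the test. TIMM9 was at 122 ± 14 and 96.7 ± 38.0 CPM (log2 fold change -0.10), TIMM13 at 299.6 ± 26.5 and 319 ± 40 (log2 fold change 0.38), and TIMM8A had a log2 fold change of 0.05.

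The quotient of TIMM10 to TIMM9 was 0.285 ± 0.117 on Day 2 and 1.38 ± 1.199 on Day 3. It was 0.211 in Day3-E1 and 0.219 in Day3-E5, within the Day 2 range, and highest in Day3-E4 and Day3-E8, at 2.39 in the latter. Since capture may differ between transcripts, the quotients compare days and not amounts of protein.

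TIMM22, the channel for carrier proteins, rose from 33.6 ± 10.0 CPM (18.3 to 45.6, median 35.2) to 80.4 ± 55.6 (25.0 to 169.9, median 65.03), with a log2 fold change of 1.63 (SE 0.50, adjusted p = 0.0198). Day3-E2, Day3-E4, Day3-E7 and Day3-E8 lay above the Day 2 range and the other 4 Day 3 embryos within it. With the title ending as a term its log2 fold change was 1.31 and the call was lost (adjusted p = 0.118). TIMM22 reached the level of the filter in 5 of 6 Day 2 embryos and so needed Day 3 embryos to pass. Without the filter its edgeR adjusted p was 0.0155.

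None of the 5 genes of the TIM23 complex was called higher on Day 3, beside 21.18% of all genes. Called lower was 1 of the 5 (20.0%, beside 11.28%), too few to compare. Together they were at 1172 ± 116 CPM on Day 2 and 810 ± 243 on Day 3, with every Day 3 embryo but Day3-E1 below the Day 2 range. At an unadjusted p under 0.05 edgeR called 0 of the 5 genes higher and 1 lower, and DESeq2 called 0 higher and 1 lower at its adjusted p. The gene that passed the test was TIMM21, a subunit that links the translocase to respiratory chain complexes. It was at 66.3 to 150.7 CPM on Day 2 with a median of 76.0, and at 20.9 to 62.4 on Day 3 with a median of 40.8. The days did not overlap, as was so for 5.38% of all genes tested in this direction. The log2 fold change was -0.81 (SE 0.25, adjusted p = 0.0205), and without Day2-E4, which held the highest value, the adjusted p was 0.0559. With the title ending as a term the log2 fold change was -0.68 and the adjusted p 0.116.

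The channel gene TIMM23 was at 401 ± 49 CPM on Day 2 and 289 ± 54 on Day 3. Its log2 fold change was -0.19 with TMM (adjusted p = 0.424) and -0.46 without (adjusted p = 0.0489), so that it passed the threshold only by library size. TIMM44, which tethers the import motor, was at 612 ± 89 and 419 ± 213 CPM (log2 fold change -0.36, adjusted p = 0.267). TIMM50, the receptor of the complex, was at 28.6 CPM on Day 2 (13.67 to 45.7) and 35.9 on Day 3 (10.96 to 69.5), with overlap (log2 fold change 0.60, adjusted p = 0.308), and TIMM17B, a channel partner of TIMM23, had a log2 fold change of -0.60.

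**Figure D3:**
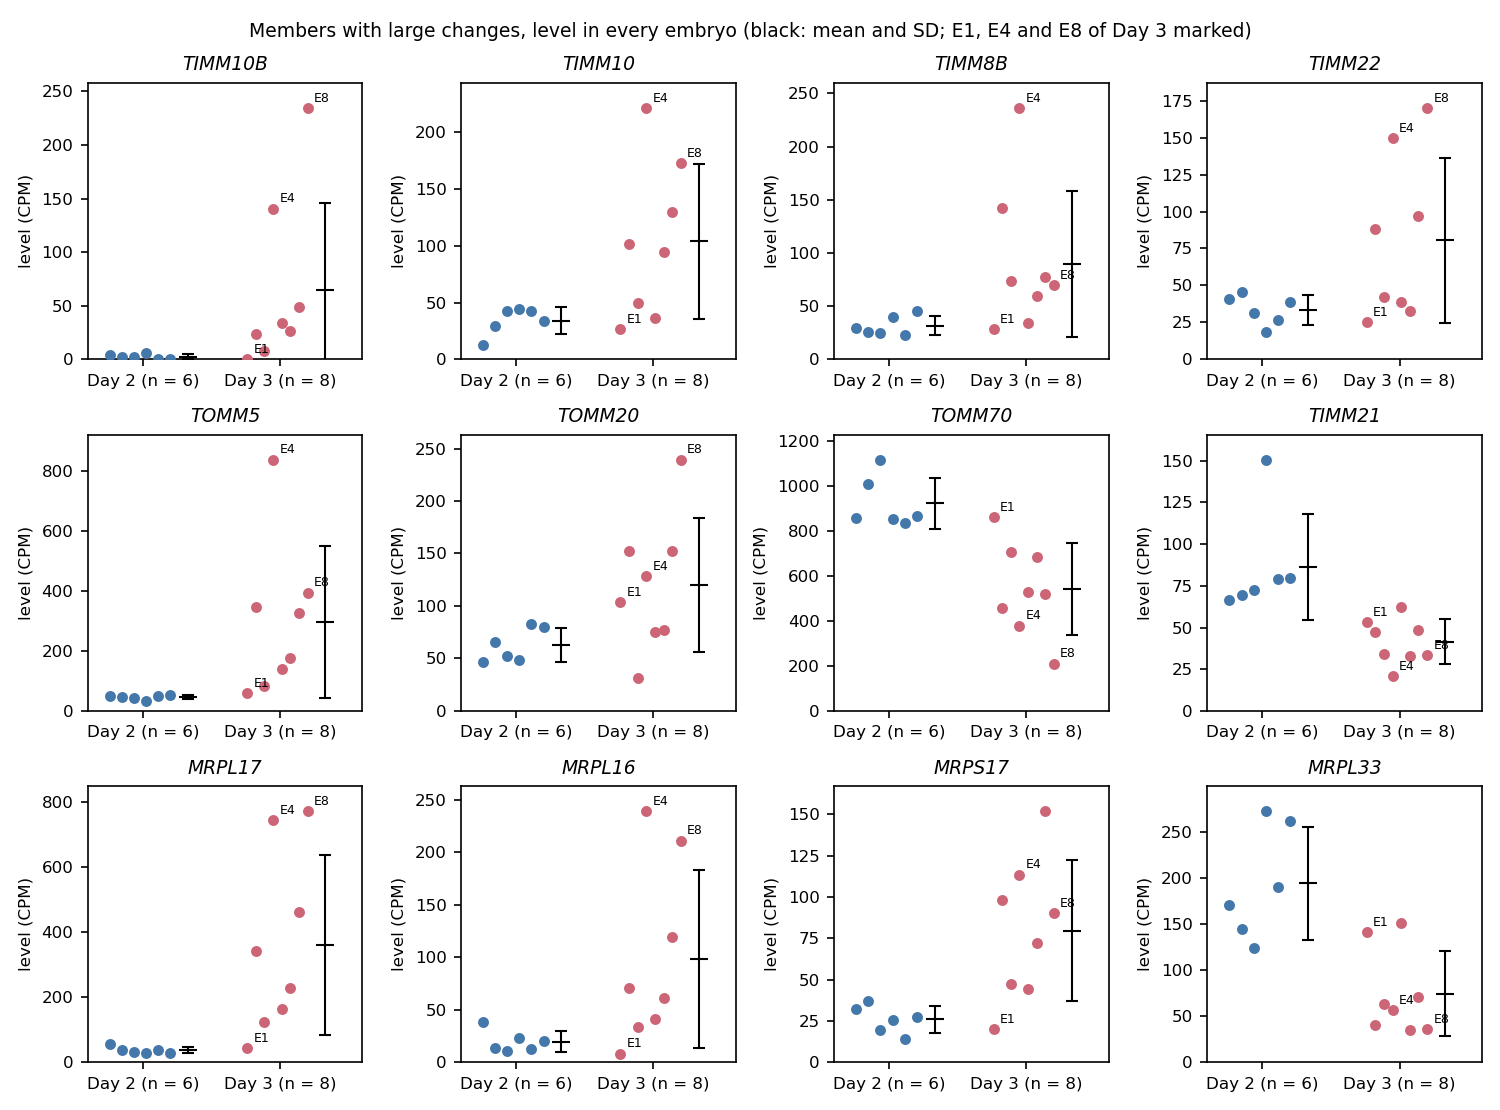
Level in CPM of 12 members in each embryo, with the mean and SD over embryos in black and Day3-E1, Day3-E4 and Day3-E8 marked. TOMM5 and TIMM21 are the 2 genes shown whose days do not overlap, and in the 9 genes shown that rose the highest embryo is Day3-E4 or Day3-E8 in all but MRPS17.

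The ribosome genes were also grouped by whether bacterial ribosomes have a counterpart. Of 21 large subunit genes with one that were tested 6 were higher (28.6%, beside 21.18% of all genes) and 1 lower, with a median log2 fold change of 0.43 (0.19 without TMM). Of 18 large subunit genes particular to the mitochondrial ribosome 3 were higher (16.67%) and 2 lower, with a median of -0.17 (-0.40 without TMM). Of the MRPS genes, 1 of 9 with a bacterial counterpart was higher, and 0 of 9 without one passed in either direction, where edgeR's unadjusted p was under 0.05 for 0 higher and 2 lower genes and DESeq2 called 0.

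MRPL17, a large subunit protein near the exit of the peptide tunnel, had 28.9 to 55.6 CPM in Day 2 embryos with a median of 36.1, and 45.0 to 772 in Day 3 embryos with a median of 286. Only Day3-E1 overlapped the Day 2 range, and Day3-E4 at 744 and Day3-E8 at 772 were highest. The mean was 37.6 ± 9.9 CPM on Day 2 and 360.4 ± 277.5 on Day 3, and the log2 fold change was 3.68 (SE 0.62, edgeR adjusted p = 0.000449).

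MRPL16, which lies close to the site of peptide bond formation, ranged from 10.55 to 38.5 CPM with a median of 17.3 on Day 2 and from 8.33 to 239 with a median of 66.3 on Day 3 (log2 fold change 2.74, standard error 0.66, adjusted p = 0.00533). Day3-E1 was below and Day3-E3 within the Day 2 range. MRPL41, without a bacterial counterpart, ranged from 10.66 to 26.4 CPM on Day 2 and from 20.8 to 95.2 on Day 3 (log2 fold change 1.72, standard error 0.45, adjusted p = 0.00786). MRPL16 reached the level of the filter in 2 and MRPL41 in 3 of 6 Day 2 embryos, so both were tested only through their Day 3 values, and without the filter their adjusted p was 0.00203 and 0.00662. MRPL27 ranged from 12.8 to 51.5 and from 21.7 to 116.6 CPM (log2 fold change 1.39, standard error 0.46, adjusted p = 0.0286), with 4 of 8 Day 3 embryos above the Day 2 range. MRPL27 reached the level of the filter in 4 of 6 Day 2 embryos and so also needed Day 3 embryos to pass. Without the filter its edgeR adjusted p was 0.0306. The call of MRPL27 was lost when any one of Day2-E1, Day2-E4, Day2-E5, Day2-E6, Day3-E4 or Day3-E8 was left out, with an adjusted p of up to 0.0689.

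The other large subunit genes called higher were MRPL1, MRPL9, MRPL24, MRPL51 and MRPL55, with log2 fold changes between 0.83 and 1.32. Of these MRPL51 kept an adjusted p under 0.05 in all 14 fits that left out 1 embryo (0.0364 at most). MRPL9 lost it without Day2-E6 (0.0506), and MRPL1, MRPL24 and MRPL55 lost it in 8 to 10 of the fits. Without TMM none of these 4 was called, and MRPL9 had a log2 fold change of 0.52 (adjusted p = 0.0701). MRPL24 reached the level of the filter in 4 and MRPL55 in 5 of 6 Day 2 embryos, so both needed Day 3 embryos to pass. Without the filter their edgeR adjusted p was 0.0739 and 0.0468.

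Among the MRPS genes MRPS17, a small subunit protein, was the one called. It ranged from 14.08 to 36.9 CPM on Day 2 with a median of 26.6, and from 20.0 (Day3-E1) to 151.9 (Day3-E7) on Day 3 with a median of 81.2. All Day 3 embryos but Day3-E1 lay above the Day 2 range. The log2 fold change was 1.92 (SE 0.43, adjusted p = 0.00327). MRPS17 reached the level of the filter in 4 of 6 Day 2 embryos and so needed Day 3 embryos to pass. Without the filter its edgeR adjusted p was 0.00177.

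The ribosome genes that fell were MRPL33, MRPL38 and MRPL48, all of the large subunit. MRPL33 had 124 to 272 CPM on Day 2 with a median of 181, and 35.1 to 150.8 on Day 3 with a median of 59.8 (log2 fold change -1.17, standard error 0.30, adjusted p = 0.00821). Only Day3-E1 and Day3-E5 reached into the Day 2 range. MRPL38 was at 33.9 ± 12.7 and 12.7 ± 7.6 CPM (log2 fold change -1.16, standard error 0.34, adjusted p = 0.0173), with 3 Day 3 embryos inside the Day 2 range.

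MRPL48 had 46.7 to 76.9 CPM on Day 2 with a median of 49.5, and 9.70 to 45.0 on Day 3 with a median of 28.9, so that the days did not overlap. Its log2 fold change was -0.77 (SE 0.27, adjusted p = 0.0368), and the call was lost without Day2-E1, Day2-E6, Day3-E2, Day3-E4 or Day3-E7, with an adjusted p of up to 0.0742. MRPS5 was also lower in every Day 3 embryo, at 87.0 ± 17.7 against 131 ± 20 CPM, yet its log2 fold change of -0.33 had an adjusted p of 0.178 by edgeR's test, while without TMM it was called lower (-0.59, adjusted p = 0.0309). MRPL57 did not pass the filter on low counts. It was listed at 0 to 3.26 CPM in Day 2 embryos and 5.20 to 43.8 in Day 3 embryos, with all Day 3 embryos above. Without the filter edgeR called MRPL57 higher (log2 fold change 3.797, adjusted p = 0.000229) and likewise TIMMDC1 (2.51, adjusted p = 0.00645), and called MRPL3 lower (-1.39, adjusted p = 0.0460).

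The 2 most abundant MRPL and the 2 most abundant MRPS genes, by the mean over all embryos, did not pass the test. MRPL20 was the most abundant member on Day 2 and by the mean over all embryos, while TOMM6 was higher on Day 3, at 738 CPM. MRPL20 was at 1054 ± 84 CPM on Day 2 and 702 ± 316 on Day 3. Its Day 3 embryos ranged from 335 (Day3-E8) to 1177 (Day3-E5), with a log2 fold change of -0.38 (adjusted p = 0.151). MRPL37 was at 448 ± 68 and 366 ± 68 CPM, MRPS16 at 226 ± 42 and 171 ± 50, and MRPS31 at 497 ± 45 and 296 ± 156, with log2 fold changes of -0.03, -0.11 and -0.55. MRPS31 (adjusted p = 0.0825) passed at 0.0129 when Day3-E1, which held its highest value, was left out.

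The members were split by their mean level over all embryos, which the changes themselves move. Of 32 members with a mean of at least 100 CPM over the embryos 4 were higher and 2 lower (18.8% called), beside 39.7% of the 2405 genes of that level in the whole table. Of 45 tested members under 100 CPM 13 were higher and 3 lower (35.6%), beside 26.4% of the 2869 such genes. That contrast with all genes was not tested.

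Members called higher and lower took different shares of the sum on the 2 days. The 17 members called higher, chosen by this same comparison and so a description, took 6.18% of the members' UMI on Day 2 and 19.3% on Day 3, from 695 ± 44 to 1980 ± 1176 CPM. From the lowest to the highest Day 3 embryo their sum was 735 CPM (Day3-E1), 916 (Day3-E3), 1097 (Day3-E5), 1400.5 (Day3-E6), 2119 (Day3-E2), 2224 (Day3-E7), 3504 (Day3-E8) and then 3846 CPM (Day3-E4). Only Day3-E1 lay within the Day 2 range of 616 to 744 CPM. The 5 members called lower went from 1297 ± 92 to 701 ± 249 CPM, with Day3-E1 highest at 1126 and Day3-E8 lowest at 311.

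The 55 members not called summed to 9058 ± 286 CPM on Day 2 and 7373 ± 1356 on Day 3. The 10 most abundant members took 50.2% of the members' UMI on Day 2 and 41.4% on Day 3, with 52.1% in Day3-E1, 29.6% in Day3-E4 and 25.9% in Day3-E8. The 16 members not tested held 203 ± 30 and 257 ± 115 CPM.

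**Figure D4:**
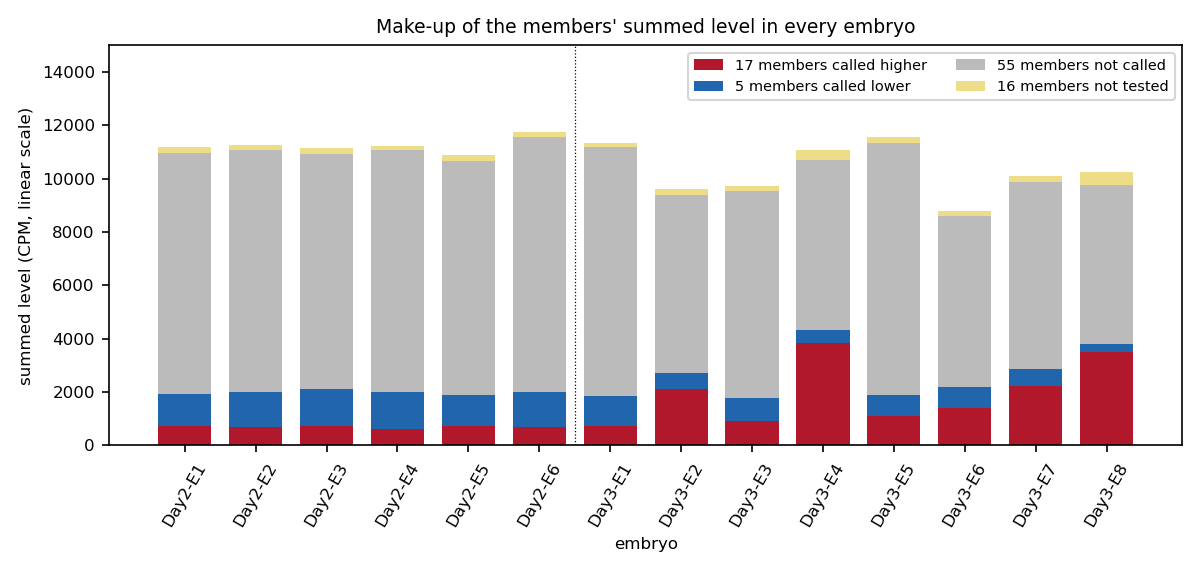
Summed CPM of the members in each of the 14 embryos, stacked by their call between the days on a linear axis. The red part, the 17 members called higher, is about as small in Day3-E1 as in Day 2 embryos and largest in Day3-E4 and Day3-E8.

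Differences among Day 3 embryos ran through most of the members that rose. Of these 17 genes Day3-E1 was the lowest Day 3 embryo in 12, and it lay within the Day 2 range in 11, above it in 4 and below it in 2. Day3-E4 or Day3-E8 was highest in 15, and these 2 embryos were both at the top in 12, as they were in 468 of the 1117 genes of the whole table that were higher. Without Day3-E1, 18 members were called higher and 8 lower (33.8% called, beside 41.7% of all genes). Without Day3-E4 there were 11 higher and 3 lower (18.4%, beside 25.5%), so that the share called moved in the whole table too.

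The cytosolic ribosomal protein genes are set beside the members for comparison. Of 72 such genes tested 61 were higher by edgeR's test (84.7%, beside 21.18% of all genes) and the others were not called, with a median log2 fold change of 1.55, and their sum was 18282 ± 1540 CPM on Day 2 and 39272 ± 16250 on Day 3. It was lowest in Day3-E1 at 20602 CPM and highest in Day3-E8 at 66188. The genes of the complex I subunits, named NDUF, had 6 higher and 6 lower of 26 tested (23.1% each, beside 21.18% and 11.28%) and a median of -0.31. The families were set side by side and their difference was not tested.

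Within p2 all 22 called members had a mean CPM that differed between the days in the direction of their call, and within p3 21 of 22 did. Since these embryos were among those that chose the 22 members, that is a description and no separate support. The exception was TOMM40, at 29.4 CPM in the Day 2 and 23.8 in the Day 3 embryos of p3. On p2 the 17 genes summed to 695 CPM in 2 Day 2 embryos and 2864 in 2 Day 3 embryos, and on p3 to 695 in 4 and 1249 in 2. The 5 genes called lower summed to 1259 and 484 CPM on p2, and to 1316 and 792 on p3. With the title ending as a term of edgeR's fit 13 members were higher and 4 lower, of which 10 and 3 were among those called without it. That fit called 22.1% of the members tested, beside 30.7% of all genes. Within each day the title ending also follows the time of collection. The 9 calls lost were MRPL1, MRPL24, MRPL27, MRPL48, MRPL55, TIMM8B, TIMM21, TIMM22 and TOMM40. Some had nearly the same log2 fold change with the term, such as MRPL24 (0.94), MRPL27 (1.34) and MRPL48 (-0.80), while TIMM8B went from 1.85 to 1.14 and TOMM40 from 1.25 to 0.96.

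Day3-E3, whose barcode set was not clear, was left out of the fit on the first set. Within the first barcode set, with 6 Day 2 embryos and only Day3-E1 and Day3-E2, edgeR called 3 members higher and 0 lower of 86 tested (3.49%, beside 5.67% of all genes). These were TOMM5 (log2 fold change 2.36, adjusted p = 0.0166), MRPL17 (2.59, adjusted p = 0.0181) and TOMM20 (1.201, adjusted p = 0.0347). At an unadjusted p under 0.05 there were 8 higher and 4 lower. The 21 members called over all embryos that could be tested there had the same sign, but 11 of them had a log2 fold change more than 1.5 times smaller. Since these embryos were among those that chose the members, the shared sign is a description and no separate support. Day3-E1, 1 of the 2 Day 3 embryos there, summed to 735 CPM over the 17 members called higher, within the Day 2 range. Its part in the smaller changes was not tested. The log2 fold change went from 2.74 to 1.12 for MRPL16, from 1.95 to 1.02 for TIMM10, from 1.39 to 0.51 for MRPL27 and from -1.16 to -0.32 for MRPL38. The second set holds no Day 2 embryo, so that its effect and that of the day cannot be told apart for the rest.

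In single cells the members were widely detected. Of the 93 members, 73.4 ± 8.7 were seen in a Day 2 cell with at least 1 UMI (mean and SD over 6 embryos) and 58.1 ± 4.6 in a Day 3 cell (8 embryos), but Day 2 cells were deeper, with a median of 75114 UMI on genes against 24017. After each cell was thinned to 10000 UMI, which kept 37 Day 2 and 103 Day 3 cells, the numbers were 43.3 ± 1.5 and 42.5 ± 2.7. In these thinned cells the SD of the members' UMI over the cells of an embryo was above the SD of counting alone in all 14 embryos. It was nearest to counting in Day2-E2, at 11.17 beside 10.74, and lay at 17.67 beside 10.94 in Day2-E6, 17.37 beside 10.49 in Day3-E4 and 16.53 beside 10.02 in Day3-E8. Day3-E3 had the highest, where 13 cells ranged from 80 to 172 UMI around a median of 89, with an SD of 25.95 beside 9.99 for counting.

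Of 14 mitoribosome assembly factors tested 3 were higher (21.4%, beside 21.18% of all genes) and 1 was lower (7.143%, beside 11.28%), shares near those of all genes. The higher ones were MALSU1 (5.02 ± 1.98 to 49.7 ± 37.9 CPM, log2 fold change 3.58, edgeR adjusted p = 0.00183), which joins the maturing large subunit, TRMT10C (log2 fold change 2.09), a subunit of mitochondrial RNase P, and RPUSD4 (0.81), a pseudouridine synthase. The lower one was MTERF4 (-0.98), which guides an rRNA methyltransferase. MALSU1 reached the level of the filter in no Day 2 embryo and was tested only because it was high on Day 3. Of 8 translation factors tested 1 was higher (12.5%, beside 21.18% of all genes) and 3 were lower (37.5%, beside 11.28%), too few to compare. The release factor MTRF1L rose from 176 ± 30 to 502 ± 258 CPM (log2 fold change 1.90, edgeR adjusted p = 0.00169). Against that, GFM2, which recycles ribosomes, MTIF2, the initiation factor, and MTFMT, which formylates the initiator tRNA, fell with log2 fold changes of -0.98, -1.08 and -1.01.

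Of 4 mitoribosome proteins tested under other symbols, 0 were called in either direction by edgeR, beside 32.46% of all genes. Of these 4 genes 0 were higher and 1 was lower at an unadjusted p under 0.05, and DESeq2 called 0 higher and 1 lower. Of 10 import proteins tested under other symbols 1 was higher and 1 lower (10.0% each, beside 21.18% and 11.28% of all genes). CHCHD4, which folds small intermembrane space proteins, was the higher one (log2 fold change 0.79, edgeR adjusted p = 0.0442, or 0.135 without TMM). The matrix chaperonin HSPD1 was the lower one (-0.93, adjusted p = 0.0294).

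Of 13 genes of mitochondrial DNA transcription and maintenance 3 were higher (23.1%, beside 21.18% of all genes) and 1 lower (7.69%, beside 11.28%), shares near those of all genes. TFAM, which packages mitochondrial DNA and starts its transcription, rose from 7.73 ± 3.29 CPM (3.96 to 12.8) to 104.0 ± 64.5 (18.3 to 185), with no overlap of the days and a log2 fold change of 4.10 (SE 0.60, edgeR adjusted p = 0.000178). It too was below the level of the filter in every Day 2 embryo. PNPT1, an RNA-degrading enzyme, and the RNA polymerase POLRMT rose with log2 fold changes of 1.99 and 1.54, having reached that level in 3 and 2 of 6 Day 2 embryos, while SUPV3L1, the helicase partner of PNPT1, fell with -1.57. With the title ending as a term POLRMT lost its call (log2 fold change 1.05, adjusted p = 0.140). Only 2 of 14 mitochondrial tRNA synthetases in the table could be tested. Of these RARS2 fell from 199 ± 26 to 63.8 ± 27.1 CPM (log2 fold change -1.42, adjusted p = 0.000661).

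The labelled cells were checked against markers. Of the oocyte and early embryo markers 10 were tested. By edgeR 0 were higher and 4 lower (GDF9, ZP2, ZAR1 and OOEP), beside 21.18% and 11.28% of all genes, a contrast that was not tested. At edgeR's unadjusted p under 0.05, 1 of these markers was higher and 5 were lower, and DESeq2 also called 1 higher and 5 lower. They summed to 8288 ± 417 CPM on Day 2 and 6781 ± 2412 on Day 3, with DPPA3 the most abundant and Day3-E8 lowest at 2492. Of the cumulus and granulosa cell markers 11 were in the table and summed to 559 ± 47 and 394 ± 141 CPM. STAR and HAS2 held most of that sum, HAS2 at 254 ± 38 and 190.35 ± 75.4 CPM, while AMH, FOXL2, CYP11A1, INHA and PTX3 had means under 4 CPM on both days. INHBA was at 13.39 and 24.97 CPM and TNFAIP6 at 0.380 and 12.4, neither past the filter. Of the 3 tested 0 were called by edgeR, beside 32.46% of all genes, too few to compare. At edgeR's unadjusted p under 0.05 there were 0 higher and 1 lower, and likewise by DESeq2.

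By the RefSeq annotation of another assembly (ARS-UCD2.0), which matched all 93 symbols, some members overlap other genes. Among those called these include MRPL16 with STX3, MRPL51 with VAMP1, MRPL55 with GUK1, TIMM8B with NKAPD1 and TOMM70 with LNP1. Whether the counting used strand is not given in the sources used here, so that reads of such pairs may have been assigned to either gene. Of the partners in the table, VAMP1 was at 0.433 CPM on Day 2 and 7.38 on Day 3, STX3 at 7.74 and 6.19, GUK1 at 56.2 and 49.9, and LNP1 at 10.64 and 9.21.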

How the data were processed

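The authors mapped SCRB-Seq reads to the bovine genome (bosTau7) and ERCC sequences with STAR 2.5.2b, used the Drop-seq pipeline to count UMI, and deposited the raw UMI counts of 170 cells. These deposited counts are the unit used here. A second, normalised table was not used. Cells under 2000 UMI were left out, ERCC rows were removed, and counts were summed per embryo, since cells of an embryo are not independent. All genes were fitted with edgeR 4.0.16 in R 4.3.3 (filterByExpr, TMM, quasi-likelihood test, day as the only term), with Benjamini-Hochberg adjustment over 5274 genes and a threshold of 0.05, and the steps were tested on simulated data. Sums, quotients and counts over the members are descriptions without a test. Every ± is an SD over embryos. Alternatives were DESeq2 1.42.0, no TMM, no filter, the title ending (p1 to p3) or embryo number as a term, 1 barcode set, deeper or thinned cells, leaving out each embryo and other memberships of the families.

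Named members were, per prefix, up to 4 of the largest called changes in each direction and the 2 most abundant, plus TOMM20, TOMM22, TOMM40, TOMM70, TIMM22, TIMM23, TIMM44 and TIMM50. From the other gene lists up to 3 called genes in each direction were named. MRPS5, MRPL57, MRPL51 and the genes named beside them were chosen after their values were seen. The members and lists were chosen with earlier results of these data known.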

Additional observations from a re-analysis of the deposited data

Results flagged for a closer look

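In 66 groups of embryos (26 named members and 7 sums or quotients, on each day) 3 single embryos lay far from the others by Dixon's criterion, which chance meets in about 1 of 20 groups. TIMM21 reached 150.7 CPM in Day2-E4, where the next highest Day 2 embryo had 79.7. TOMM5 reached 837 CPM in Day3-E4, with 394 CPM in the next, Day3-E8. TOMM6 reached 1171 CPM in Day2-E6, with 846 CPM in the next highest Day 2 embryo.

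The 9 cells left out for having under 2000 UMI still held 55 UMI of members among 5276 UMI on genes, or 10425 CPM, with 16 to 1598 UMI on genes per cell.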

How the results depend on the processing

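Over 22 other fits on all or some of these embryos, none of the 22 called members that could be tested changed sign. How many passed depended on the fit. Without TMM 12 members were higher and 10 lower, in the first barcode set 3 and 0 (at an unadjusted p under 0.05 edgeR gave 8 and 4), and with cells thinned to 10000 UMI, where only 36 members were tested, 3 and 1. Of the calls in thinned cells 2 higher and 0 lower were among the 22, and MRPS31 and MRPS36 were gained. MRPL9, MRPL33, TOMM20 and TOMM70 lost their call there. MRPL33 had a log2 fold change of -0.92 (edgeR adjusted p = 0.0695) and TOMM70 of -0.54 (0.0875). DESeq2 called 23 higher and 7 lower (39.0% of members, beside 42.0% of all genes), the 22 members included. Leaving out each embryo in turn gave 11 to 20 members higher and 3 to 8 lower, with 11 higher without Day2-E1, Day2-E4, Day2-E6, Day3-E4 or Day3-E8. The share called ran from 18.4% to 33.8% of members and from 25.5% to 41.7% of all genes. Of the 22 members 11 were called in all 14 of these fits. TIMM10B was called in the 8 that tested it, and 10 members were lost at least once. Among import genes the title ending as a term left 4 higher and 1 lower, while 30.7% of all genes were called.

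The log2 ratio of the summed levels was -0.13 for ribosome genes, -0.11 for import genes and -0.13 for all members. TMM-scaled CPM gave 0.15, 0.16 and 0.15, and UMI per ERCC UMI gave -0.64, -0.61 and -0.63; the causes were not tested. Without single embryos the ranges were -0.17 to -0.10, -0.15 to -0.09 and -0.15 to -0.10. The log2 ratio of the ribosome to import quotient was -0.02 (-0.04 to 0.01 without single embryos). It was -0.12 in the first barcode set and 0.074 when proteins under other symbols were added and TIMMDC1 and MRPS36 left out, so its sign is not settled.

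With the embryo number as a replicate block 6 members were higher and 1 lower, all among the 22. Embryos of the 2 days with the same number share only a label. The correlations of their deviations in 6 pairs ran from -0.13 to 0.03, none over 0.1, and no embryo correlated best with its own number.

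Depth limits the rarest members: 16 of the 93 did not pass the filter. Without the filter 3 of them were called, MRPL57 and TIMMDC1 higher and MRPL3 lower, and MRPL24, MRPL48 and TOMM40 lost their call. That fit called 23.7% of the 93 members, beside 20.3% of all genes. Intervals beyond the SD over embryos were not computed.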
